A study of Mus musculus with 6 samples.

Results

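Interferon-stimulated genes are the antiviral genes that a cell switches on after it meets an interferon. They were followed here in 3 sorted cell populations of C57BL/6 mouse hind limb muscle at 2 ages. The set was chosen by name and holds 34 genes: cytosolic sensors of foreign nucleic acid, transcription factors of the pathway, and the proteins that block viral replication. A probe was matched to 33 of them by gene symbol, out of 19321 genes named on the array, and the brightest probe of each gene over the 6 arrays was used. Ifi44 was not matched to a probe and was not analysed here. All 33 matched genes entered the tests, and 32 were above background on all 6 arrays.

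Each array carried Cy5-labelled amplified RNA of 1 population at 1 age. The populations were PDGFRa+ mesenchymal progenitors, satellite cells (the muscle stem cells), and a mixed sort of CD31+ or CD45+ cells, which takes in endothelial cells and blood-derived cells. Young mice were 8 to 10 weeks old and aged mice 24 to 28 months old. Cells were freshly sorted, and, per the series' design text, the yields of several sorts were pooled for each array, so animals cannot be told apart. There was 1 array per population and age and thus no replicate within a group. Comparisons between populations rest on 2 arrays each, the young and the aged, and their p-values measure the spread left between arrays after population and age were fitted. The design asks which genes mark each population and which differ with age.

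Type I interferons signal through the receptor IFNAR and the kinases JAK1 and TYK2 to a complex that includes STAT2 and IRF9 and binds the interferon-stimulated response element (ISRE) in gene promoters. Interferon gamma signals through its own receptor, JAK1 and JAK2, and its target genes carry the gamma-activated site (GAS). Many targets keep a low level of expression without infection, and macrophages and dendritic cells are known for high levels of the pathway. In skeletal muscle the genes are best known from dermatomyositis, an inflammatory muscle disease in which they are raised in muscle fibres.

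The promoters show what many members share at the sequence level. RefSeq promoter windows (GRCm38.p6, 250 bases before to 50 bases after the start site) were found for 25 of the 34 genes. The ISRE core (GAAA, any 2 bases, GAAA), searched on both strands, was in the window of 14 of these 25 genes (56%), against 1079 of 27025 genes of the whole table (3.99%). The 8 stretches that follow run from 160 bases before the start site to the base before it. They are the promoters of members with large cell type differences that hold the core, and capitals mark each match; on the opposite strand the core reads as TTTC, any 2 bases, TTTC.
Rsad2 (chr12:26456453-26456612, minus strand): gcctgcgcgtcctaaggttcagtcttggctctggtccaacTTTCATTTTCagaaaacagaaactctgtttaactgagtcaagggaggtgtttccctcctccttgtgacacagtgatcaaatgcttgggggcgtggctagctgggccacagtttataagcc
Isg15 (chr4:156200819-156200978, minus strand): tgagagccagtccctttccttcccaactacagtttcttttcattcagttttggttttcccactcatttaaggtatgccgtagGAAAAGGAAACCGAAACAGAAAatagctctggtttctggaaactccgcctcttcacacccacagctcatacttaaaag
Bst2 (chr8:71537473-71537632, minus strand): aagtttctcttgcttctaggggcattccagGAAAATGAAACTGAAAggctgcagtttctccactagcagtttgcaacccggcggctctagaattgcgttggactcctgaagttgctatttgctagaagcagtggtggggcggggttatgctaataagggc
Ifit1 (chr19:34640729-34640888, plus strand): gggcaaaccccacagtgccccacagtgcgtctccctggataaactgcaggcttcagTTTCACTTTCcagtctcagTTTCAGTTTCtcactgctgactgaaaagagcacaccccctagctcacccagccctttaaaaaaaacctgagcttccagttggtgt
Ifit3 (chr19:34583369-34583528, plus strand): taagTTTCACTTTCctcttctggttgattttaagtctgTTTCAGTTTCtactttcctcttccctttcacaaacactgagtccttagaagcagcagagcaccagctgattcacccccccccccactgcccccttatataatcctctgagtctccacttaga
Gbp2 (chr3:142620503-142620662, plus strand): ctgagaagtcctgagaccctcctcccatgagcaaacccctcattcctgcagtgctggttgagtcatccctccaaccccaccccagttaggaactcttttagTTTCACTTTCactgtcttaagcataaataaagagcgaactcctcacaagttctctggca
Gbp3 (chr3:142559884-142560043, plus strand): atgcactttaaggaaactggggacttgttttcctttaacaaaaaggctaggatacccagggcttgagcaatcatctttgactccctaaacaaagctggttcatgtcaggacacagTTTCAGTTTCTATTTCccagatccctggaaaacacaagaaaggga
Oas1a (chr5:120907526-120907685, minus strand): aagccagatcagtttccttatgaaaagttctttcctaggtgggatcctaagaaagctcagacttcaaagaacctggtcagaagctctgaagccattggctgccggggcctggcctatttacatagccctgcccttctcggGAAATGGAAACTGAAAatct

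In 8 of these promoters the core started between positions -156 and -14 from the start site, at -120 in Rsad2, at -130 and -124 in Bst2, and at -104 and -85 in Ifit1. The matches of Isg15 overlap and form a single run of 3 cores from -78 onwards. Matches of Bst2, Gbp3 and Oas1a also overlap in pairs. Stat2 held a core farther out, at -222, and Oas3 at -75. In Ddx58, Ifih1, Eif2ak2 and Ifitm3 the match lay after the start site. The GAS core (TTC, any 3 bases, GAA), searched on both strands, was in 7 of the 25 genes (28%), against 9.55% of all genes. Irf1, a textbook target of interferon gamma, held it at -90 and had no ISRE core in its windows. Bst2 and Ifitm3 hold a GAS match that overlaps an ISRE match. Of the other interferon-induced genes on a list of 60, 47 had a promoter and 23 of those (48.9%) held the ISRE core. A match is a run of letters and was not tested as a binding site.

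**Figure D1:**
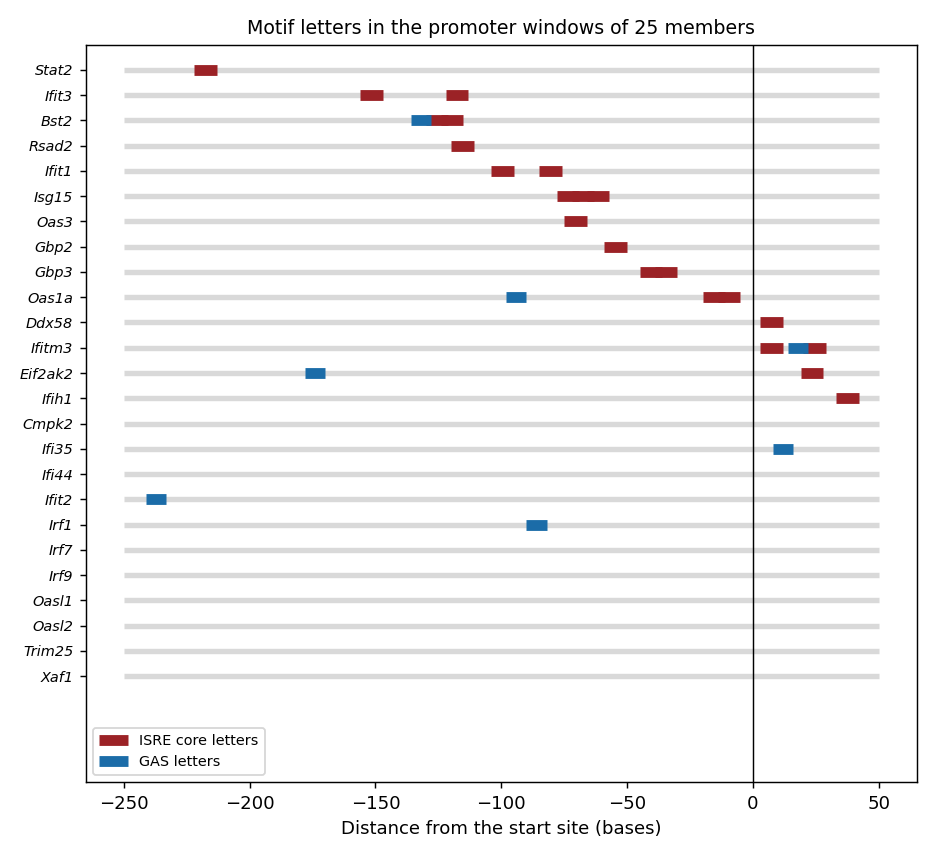
Positions of the ISRE core (red) and the GAS core (blue) along the promoter windows of the 25 members with a RefSeq promoter; the x axis is the distance from the start site in bases, and each grey line is a window. ISRE matches in 14 genes lie before the start site in 10 of them and after it in 4, and 11 genes hold none.

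The sorts could be read from their own markers. Pdgfra read 5700 and 4149 on the young and aged PDGFRa+ arrays, Pax7 read 1055 and 1362 on the satellite cell arrays and was not above background on the PDGFRa+ arrays, and Pecam1 and Ptprc read 2465 and 252 (young) and 2451 and 415 (aged) on the CD31+ or CD45+ arrays. These are the authors' deposited intensities, linear values scaled to a median of 25 on each array. From 88.4% to 92.3% of the 23473 probes were above background on each array. The scanner headers put both PDGFRa+ arrays and the young satellite array at a gain slope of 0.465 to 0.466, and the other 3 arrays at 0.477 to 0.478. These 2 ranges of slope are called scanner settings below, and whether they mark separate scanning runs is not stated. No PDGFRa+ array shares a scanner setting in this sense with a CD31+ or CD45+ array.

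The CD31+ or CD45+ population held most of the signal of these genes. On the log2 scale used for the tests (background-corrected against blank spots, offset 50, quantile-normalised), both of its arrays lay above all 4 others for 28 of the 33 members, where 19.6% of all 18372 genes tested did so. The exceptions were Ddx58, Ifitm3, Mx2, Oas3 and Zbp1. Its mean was the highest of the 3 populations for 31 members, and the satellite cell mean was the lowest for 26. For 25 members the order was CD31+ or CD45+, then PDGFRa+, then satellite cells. These orders of the means were not counted over all genes, so no share can be set beside them. In pooled RNA of a mixed population, fewer cells with a transcript and less of it per cell cannot be told apart, and neither can endothelial and blood-derived cells.

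**Figure D2:**
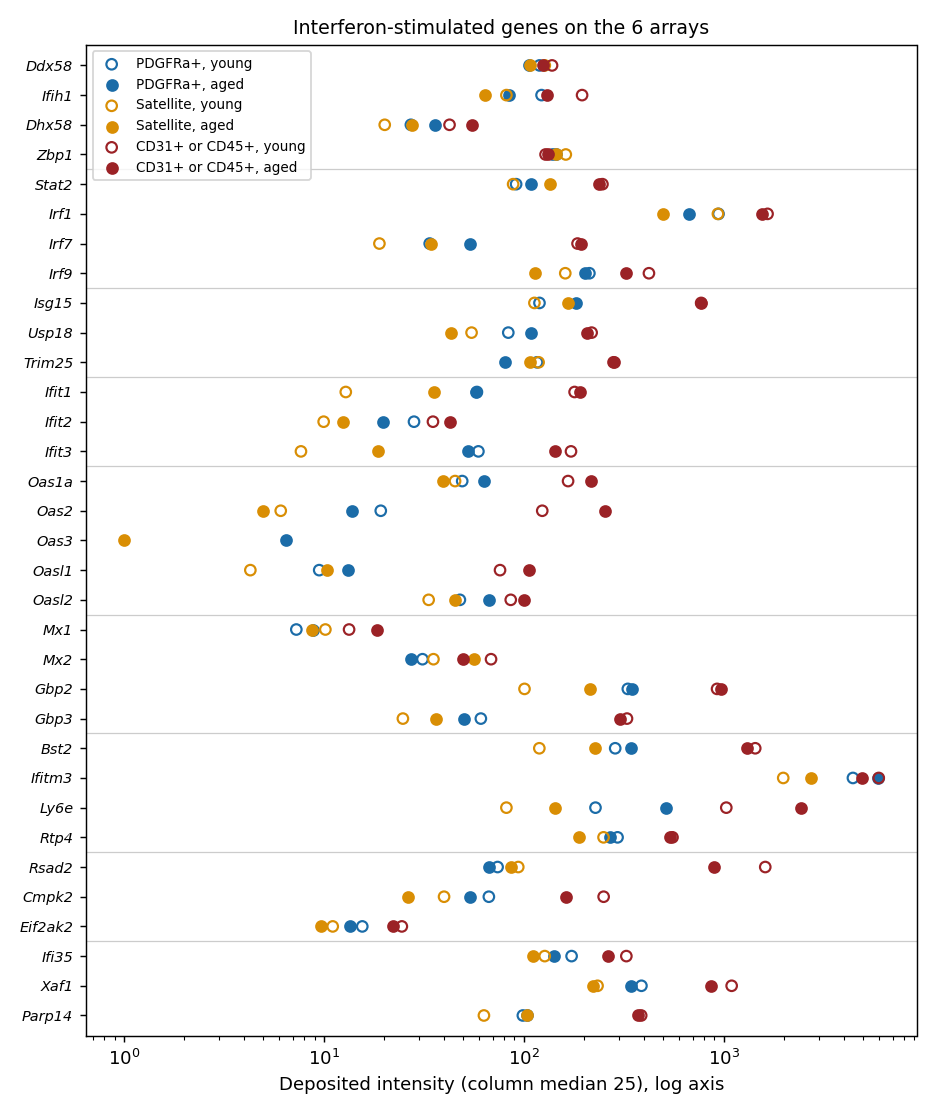
Deposited intensity of each member on the 6 arrays (x axis, log scale; open circles young, filled circles aged), with genes grouped by role between grey lines. The CD31+ or CD45+ points (red) lie to the right for most genes, while Ddx58 and Zbp1 sit at nearly the same level on all 6 arrays, and Oas3 has points on 2 arrays only.

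Against the CD31+ or CD45+ cells, PDGFRa+ cells were lower for 18 of the 33 members and higher for none, at a limma adjusted p under 0.05 and at least a 2-fold difference; 5.40% of all genes tested were called lower in the same way. A further 8 members passed the adjusted p with less than 2-fold, and 7 did not pass it. The median difference over the 33 was -1.06 on the log2 scale, against 0.01 over all genes. Satellite cells were lower for 22 members and higher for none, where 6.56% of all genes were called lower, with a median of -1.53 against 0.02. Across all genes 4.70% and 5.12% were called higher in PDGFRa+ and in satellite cells. A further 6 passed the adjusted p alone and 5 did not pass it. In all, 17 members were called lower in both comparisons, which share the CD31+ or CD45+ arrays. Stat2 was called in PDGFRa+ cells and not in satellite cells, and Ifi35, Ifitm3, Irf9, Rtp4 and Usp18 in satellite cells and not in PDGFRa+ cells. Of these 6, Ifitm3 alone was also called between PDGFRa+ and satellite cells.

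The count in PDGFRa+ cells rested on few arrays. It was 6 without the young PDGFRa+ array, 9 without the aged PDGFRa+ array, 11 without the young CD31+ or CD45+ array, and 4 with the scanner setting as a block, where 31 members were still below 0 with a median of -0.99. Within a population only the satellite arrays differ in scanner setting, so the block term rests on their aged minus young difference. It cannot tell a scanner effect from an age difference of satellite cells. With the local background of each spot in place of the blank spots the counts were 5 in PDGFRa+ cells and 8 in satellite cells. The calls over all genes fell as well. Those lower in PDGFRa+ cells were 609, 652, 912 and 384 in place of 993 under the first 4 of these settings, and with the local background 177 were lower in PDGFRa+ cells and 226, in place of 1206, in satellite cells. Between the aged satellite and the aged CD31+ or CD45+ arrays, which share a scanner setting, 30 members were below 0, 22 of them by at least 2-fold, with a median of -1.56. Between the young arrays of the same populations, which do not share it, 32 were below 0, 22 by at least 2-fold, with a median of -1.31. The counts for these pairs of single arrays were not made over all genes.

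**Figure D3:**
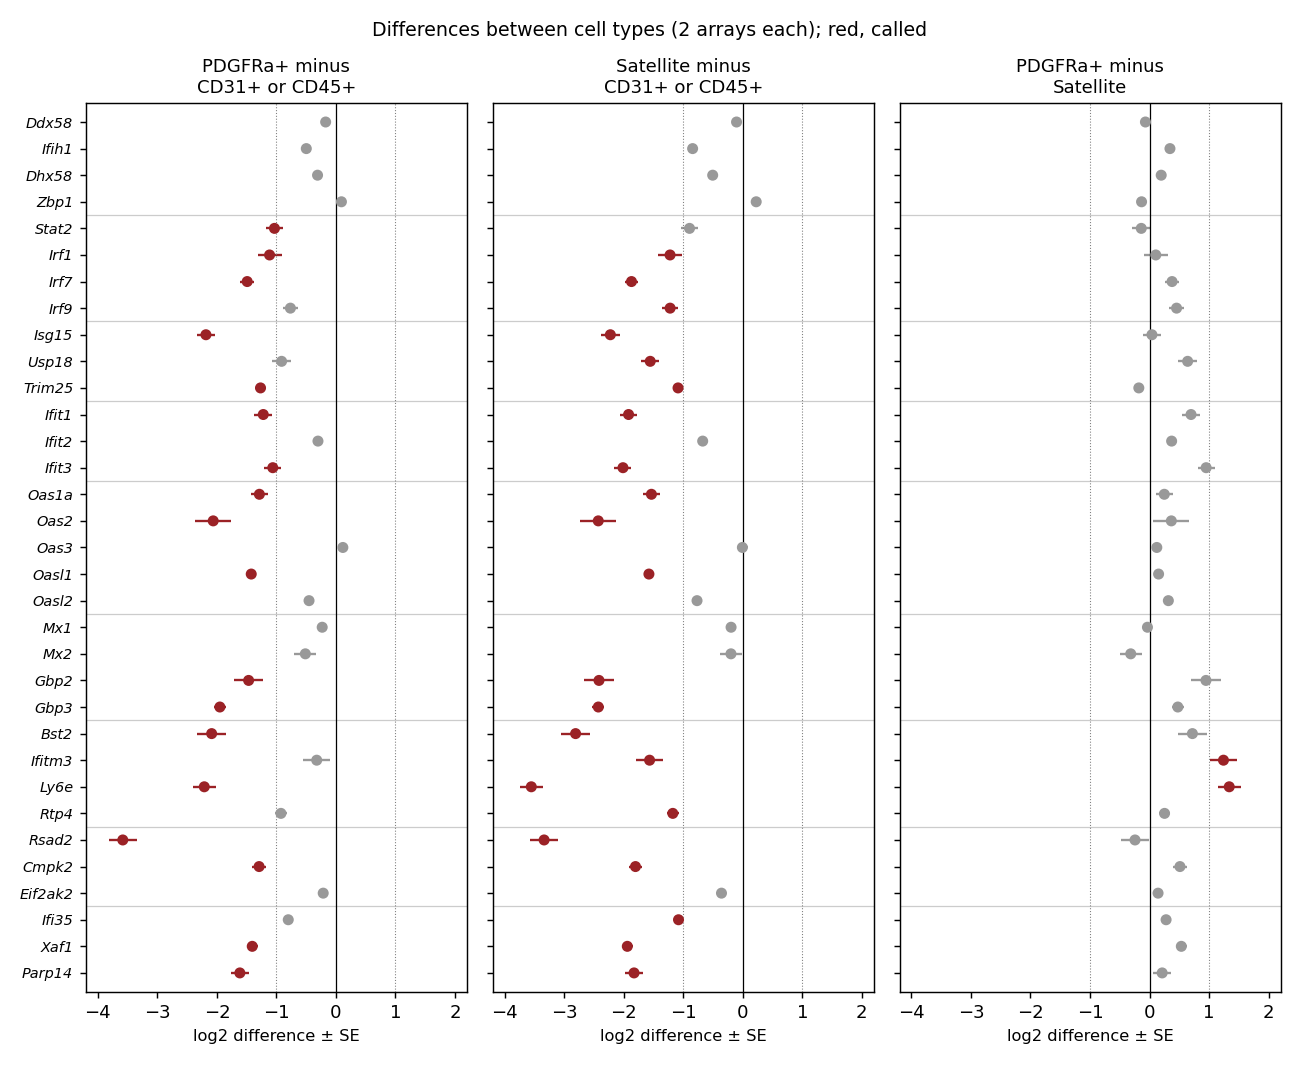
Fitted log2 difference of each member between populations (points, 2 arrays each) with its standard error (lines); red points are called at adjusted p under 0.05 and at least 2-fold, and dotted lines mark 2-fold. Called members lie on the lower side in both comparisons with CD31+ or CD45+ cells, 18 and 22 of 33. Of all genes 5.40% and 6.56% are called lower there. In the third comparison 2 membrane protein genes are called higher in PDGFRa+ than in satellite cells, near the 4.09% of all genes.

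The widest gap between PDGFRa+ and CD31+ or CD45+ cells belonged to Rsad2, which encodes viperin, an enzyme that makes a chain-terminating nucleotide for viral polymerases. It read 74.1 and 66.9 on the young and aged PDGFRa+ arrays, 94.0 and 86.6 on the satellite arrays, and 1615 and 892 on the CD31+ or CD45+ arrays. The 4 low values lie close together and far under both high ones. The difference was -3.58 ± 0.24 (SE, 2 arrays against 2; 12.0-fold lower; limma adjusted p = 0.00474) in PDGFRa+ cells and -3.34 ± 0.24 in satellite cells (10.1-fold; limma adjusted p = 0.00472). Cmpk2, a mitochondrial nucleotide kinase whose gene neighbours Rsad2, read 67.0 and 54.0, 40.0 and 26.4, and 251 and 163 in the same order. It was called lower in both comparisons, at -1.29 and -1.80 on the log2 scale. Eif2ak2, the kinase PKR that halts translation on double-stranded RNA, was dim on every array, from 9.70 to 24.6, and its differences of -0.21 and -0.36 passed the adjusted p without reaching 2-fold.

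Among the ISG15 genes, Isg15 itself separated the mixed population from the other two and did not separate those from each other. Isg15 is a ubiquitin-like tag that is joined to newly made proteins. It read 120 and 183 in PDGFRa+ cells, 113 and 166 in satellite cells, and 772 and 774 in CD31+ or CD45+ cells. The difference was -2.18 ± 0.16 in PDGFRa+ cells (limma adjusted p = 0.00539) and -2.22 ± 0.16 in satellite cells (limma adjusted p = 0.00462), and PDGFRa+ minus satellite was 0.04 ± 0.16. Usp18, the protease that removes the tag and restrains the type I receptor, read 83.8 and 109, 54.9 and 43.5, and 219 and 207. Both satellite values lie under both PDGFRa+ values, and it was called lower in satellite cells (-1.55 ± 0.15) but missed 2-fold in PDGFRa+ cells (-0.91 ± 0.15). Trim25, a ubiquitin ligase that acts on RIG-I, read 117 and 80.8, 119 and 108, and 282 and 283, and was called lower in both, at -1.27 and -1.09.

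The membrane proteins held the steepest order of the 3 populations. Ly6e, a lipid-anchored surface protein known to restrict coronavirus entry, read 229 and 515 in PDGFRa+ cells, 82.0 and 143 in satellite cells, and 1031 and 2427 in CD31+ or CD45+ cells. The ranges do not overlap, and within each population the aged array was the higher. The difference was -2.21 in PDGFRa+ cells and -3.55 in satellite cells (11.7-fold lower; limma adjusted p = 0.00307). Bst2, or tetherin, which holds budding virus at the cell surface, read 287 and 342, 120 and 227, and 1439 and 1305. Its differences were -2.09 ± 0.24 and -2.81 ± 0.24. Ifitm3, which blocks virus entry in endosomes, read 4432 and 5899 in PDGFRa+ cells, 1987 and 2725 in satellite cells, and 5967 and 4928 in CD31+ or CD45+ cells. Here the PDGFRa+ and CD31+ or CD45+ ranges overlap, and it did not pass the test between them (-0.32 ± 0.22, limma adjusted p = 0.39). Rtp4, a chaperone of surface receptors, passed the adjusted p in both comparisons, at -1.18 in satellite cells and, under 2-fold, at -0.92 in PDGFRa+ cells.

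PDGFRa+ cells were higher than satellite cells for 2 members, Ly6e (1.34 ± 0.20; limma adjusted p = 0.0253) and Ifitm3 (1.24 ± 0.22; limma adjusted p = 0.0374), and lower for none; 7.29% of all genes tested were called, 4.09% higher and 3.20% lower. The count of 2 lies near the share of all genes called higher. Ifit3, Ifi35 and Xaf1 passed the adjusted p at less than 2-fold, and the median over the members was 0.28. Both PDGFRa+ arrays lay above both satellite arrays for 18 members, a pattern that was not counted over all genes. Neither call held without the young or without the aged PDGFRa+ array, when the count was 0, or with the local background. All genes moved with it: without either PDGFRa+ array 0 of 18372 were called, and with the local background 35 were called higher and 34 lower, against 752 and 587. Ifitm3 was not called without the young or without the aged satellite array, and without the age term Ly6e was not. For this comparison the scanner setting as a block gives the same fit as leaving out the aged satellite array. It is therefore no separate check. Between the young arrays of these populations, which share a scanner setting, PDGFRa+ cells were above satellite cells for 24 of 33 members, 4 of them by at least 2-fold. That count was not made over all genes either.

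The IFIT proteins bind the ends of foreign RNA and block its translation. Ifit3 read 59.4 and 52.7 in PDGFRa+ cells, 7.70 and 18.6 in satellite cells, and 173 and 144 in CD31+ or CD45+ cells. Its fitted differences from the mixed population were -1.06 ± 0.14 and -2.01 ± 0.14; the offset added before the logarithm shrinks the differences of dim probes such as this one. Ifit1, with 58.4 and 57.5, 12.9 and 35.6, and 180 and 192, followed the same order and was called in both. Ifit2 was dimmer, between 10.0 and 43.0, and at -0.30 and -0.67 was not called. The Ifit genes are near-identical copies in part, and cross-hybridisation between them was not tested.

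The GTPases split in a similar way. Gbp3 and Gbp2 encode guanylate-binding proteins, which attack the vacuoles of intracellular microbes. Gbp3 read 61.1 and 50.4, 24.9 and 36.6, and 329 and 303, and its differences were -1.95 in PDGFRa+ cells and -2.43 in satellite cells (limma adjusted p = 0.00331 and 0.0021). Gbp2 read 332 and 349, 101 and 216, and 927 and 968, with differences of -1.47 and -2.42. Mx1 and Mx2, which trap viral nucleoproteins, were called in neither comparison, and C57BL/6 mice are known to carry an Mx1 allele that makes no working protein. Mx1 read between 7.30 and 18.4, and its second probe between 3.80 and 30.0. Mx2 read 31.2 and 27.4, 35.4 and 56.3, and 68.7 and 49.9, so that the aged satellite array lay above the aged CD31+ or CD45+ array.

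Oligoadenylate synthetases make the messenger that activates RNase L, which degrades RNA. Oas2 read 19.3 and 13.9, 6.10 and 5, and 124 and 257, with differences of -2.06 ± 0.30 and -2.43 ± 0.30. Its SE is the largest of all members, and its CD31+ or CD45+ arrays differ 2.07-fold in deposited intensity. Oas1a (49.3 and 63.4, 45.4 and 39.4, 167 and 217) and Oasl1 (9.50 and 13.2, 4.30 and 10.4, 76.2 and 106) were called in both as well. Oasl1 is known as a brake on Irf7 translation. Oasl2 passed the adjusted p in both at less than 2-fold, at -0.45 and -0.77. Oas3 was above background on the aged PDGFRa+ array (6.50) and the aged satellite array (1) alone, and no difference can be read from it.

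Of the transcription factors, Irf7, the factor that amplifies type I interferon production, stood out most. It read 33.9 and 53.8, 19.0 and 34.4, and 186 and 194, and its differences were -1.49 ± 0.11 in PDGFRa+ cells and -1.87 ± 0.11 in satellite cells (limma adjusted p = 0.00595 and 0.0036). Irf1 was bright everywhere, with 943 and 674, 936 and 497, and 1659 and 1551, and was called in both at -1.11 and -1.22. Stat2 read 91.7 and 109, 88.6 and 136, and 248 and 237, and its differences of -1.03 and -0.89 lie on either side of the 2-fold line. Irf9, its partner in the ISRE-binding complex, read 213 and 204, 162 and 115, and 423 and 323, with differences of -0.77 and -1.22.

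The sensors of viral RNA and DNA were the flattest role group by median difference, at -0.241 in PDGFRa+ cells and -0.305 in satellite cells. None of 4 was called in either comparison. With 5.40% and 6.56% of all genes called lower, a count of 0 among 4 lies near those shares. Ddx58, which encodes RIG-I, read 120 and 107, 128 and 108, and 139 and 126, so its arrays overlap between populations. Zbp1, a sensor of Z-form nucleic acid that can start necroptosis, read 140 and 145, 163 and 145, and 129 and 133, lowest in CD31+ or CD45+ cells by deposited intensity. Neither gene passed the test (limma adjusted p = 0.0999 and 0.46 in PDGFRa+ cells, 0.232 and 0.103 in satellite cells). Ifih1 (123 and 84.4, 82.0 and 64.4, 196 and 131) and Dhx58 (27.3 and 36.0, 20.2 and 27.6, 42.6 and 55.0), the other RIG-I-like receptors, passed the adjusted p at less than 2-fold, with differences between -0.31 and -0.84. Both held their highest arrays in the mixed population.

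Xaf1, an antagonist of an apoptosis inhibitor, read 388 and 346, 234 and 222, and 1097 and 870, with differences of -1.41 and -1.94. Parp14, an ADP-ribosyltransferase, read 99.1 and 104, 63.3 and 104, and 387 and 371, with -1.61 and -1.83; its second, dimmer probe gave -0.74 and -0.73. Ifi35, a regulator of innate signalling, stood at -1.08 in satellite cells and, under 2-fold, at -0.80 in PDGFRa+ cells. The ISRE core was in 10 of 18 promoters (55.6%) of members called in either comparison and in 4 of 6 (66.7%) of those called in neither; the difference was not tested.

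The wider pathway was read from lists of further genes, chosen by role. No ligand of 15 tested was called. Ifnb1, which encodes interferon beta, read from 2.80 to 5.20 on the PDGFRa+ and satellite arrays and 17.7 and 16.0 on the CD31+ or CD45+ arrays, differences of -0.41 and -0.39 that passed the adjusted p at less than 2-fold. Ifng, the product of T and NK cells, read 4 and 3.20, 3 and 3.40, and 17.4 and 158, and its differences of -1.39 and -1.42 did not pass (limma adjusted p = 0.184 and 0.161). Among the type I alpha genes, whose copies are close in sequence, Ifna1 read between 50.3 and 107. Ifna2, Ifna4, Ifna5, Ifna6, Ifna7, Ifna9, Ifna12, Ifna13, Ifna14, Ifnab, Ifne and the lambda gene Ifnl3 read at most 25.2 on any array.

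The receptors did not move as a block. Ifnar1 read between 112 and 177 on all arrays and did not pass any comparison. Ifnar2 passed the adjusted p in both comparisons under 2-fold, at -0.78 and -0.65. Ifngr1, the ligand-binding chain for interferon gamma, read 1193 and 1087 in PDGFRa+ cells, 212 and 368 in satellite cells, and 1073 and 930 in CD31+ or CD45+ cells. Satellite cells were thus lower (-1.72 ± 0.27, limma adjusted p = 0.02), and PDGFRa+ cells stood at 0.05 ± 0.27 from the mixed population. Its partner Ifngr2 was higher in PDGFRa+ than in satellite cells by 1.14. Il10rb, shared by the receptors of interferon lambda and interleukin-10, was lower in both, at -1.35 and -2.27, while Ifnlr1 read at most 2 on any array.

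Of the kinases and STATs, Tyk2 was lower in satellite cells (-1.16 ± 0.14, limma adjusted p = 0.0109), and Jak1, Jak2 and Stat3 were called in no comparison. Among 10 negative regulators, Ptpn6, a phosphatase of blood cells, was lower in both, at -1.93 and -2.01. Socs1, an inhibitor of JAK kinases, was higher in PDGFRa+ cells than in the mixed population (197 and 332 against 83.8 and 102; 1.18 ± 0.16), and Socs3, Ptpn2 and Nlrc5 were higher in satellite cells by 1.07, 1.00 and 1.27. Of 16 genes that act upstream in sensing, Sting1 was lower in both (-1.40 and -1.56), Irf8 and Unc93b1 in PDGFRa+ cells (-2.35 and -1.64), and Myd88 was higher in satellite cells (1.21).

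Of the 60 other interferon-induced genes, 54 were tested. PDGFRa+ cells were lower for 23 and higher for 3, where 5.40% and 4.70% of all genes were. The count of 3 lies near that share of all genes. Satellite cells were lower for 32 and higher for none, where 6.56% and 5.12% of all genes were. The 3 that were higher in PDGFRa+ cells are genes of the Ifi200 family, which bind DNA: Ifi205 (3.18 ± 0.16), Ifi211 (2.25 ± 0.23) and Ifi204 (1.47 ± 0.31). Ifi204 read 1281 and 1226 in PDGFRa+ cells, 5.20 and 54.6 in satellite cells, and 338 and 466 in CD31+ or CD45+ cells. Ifi203, of the same family, was lower in PDGFRa+ cells (-1.54) and lower still in satellite cells (-3.56). The family's genes are close copies, and cross-hybridisation was not tested. Gbp4 read from 3.10 to 9.50 outside the mixed population and 317 and 477 in it, and the chemokine Ccl5 read from 10.3 to 39.8 and 228 and 1462.

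With age, no member passed the test over the 3 populations: the age term was called for 0 of 33, as for 0% of all genes, and 9 members had an unadjusted p under 0.05, where 11.0% of all genes did (limma adjusted p of the members from 0.328 to 0.966). The median age difference was 0.06. On the log2 scale 9 members were higher on the aged array in all 3 populations (Dhx58, Gbp2, Ifit1, Irf7, Isg15, Ly6e, Oasl1, Oasl2 and Parp14), where 14.4% of all genes were. Another 6 were lower in all 3 (Cmpk2, Ddx58, Eif2ak2, Ifi35, Ifih1 and Irf1), where 20.8% of all genes were. The other 18 were mixed.

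Within a population the age difference is that of 1 array against 1, with no replicate and no test. The median member difference was 0.09 in PDGFRa+ cells, with 21 of 33 above 0 (all genes 49.8%), though it was -0.02 on the authors' deposited values, where the median of all genes was -0.17. In satellite cells it was 0.04, with 18 above 0 (all genes 44.1%), and in CD31+ or CD45+ cells -0.01, with 16 above 0 (all genes 43.5%). Of the 54 other interferon-induced genes tested, 27 were higher on the aged array in all 3 populations (all genes 14.4%) and 3 were lower in all 3 (all genes 20.8%). In PDGFRa+ and in satellite cells 46 of the 54 were above 0, and in CD31+ or CD45+ cells 32. In satellite cells 6 were at least 2-fold higher, in CD31+ or CD45+ cells 1 (Ccl5), and in PDGFRa+ cells 0. The shares of all genes were 1.12%, 0.509% and 0.261% in the same order. The age term called 0 of them, as 0% of all genes, and 15 had an unadjusted p under 0.05, where 11.0% of all genes did. The PDGFRa+ arrays share a scanner setting, as do the CD31+ or CD45+ arrays, and the satellite arrays do not.

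**Figure D4:**
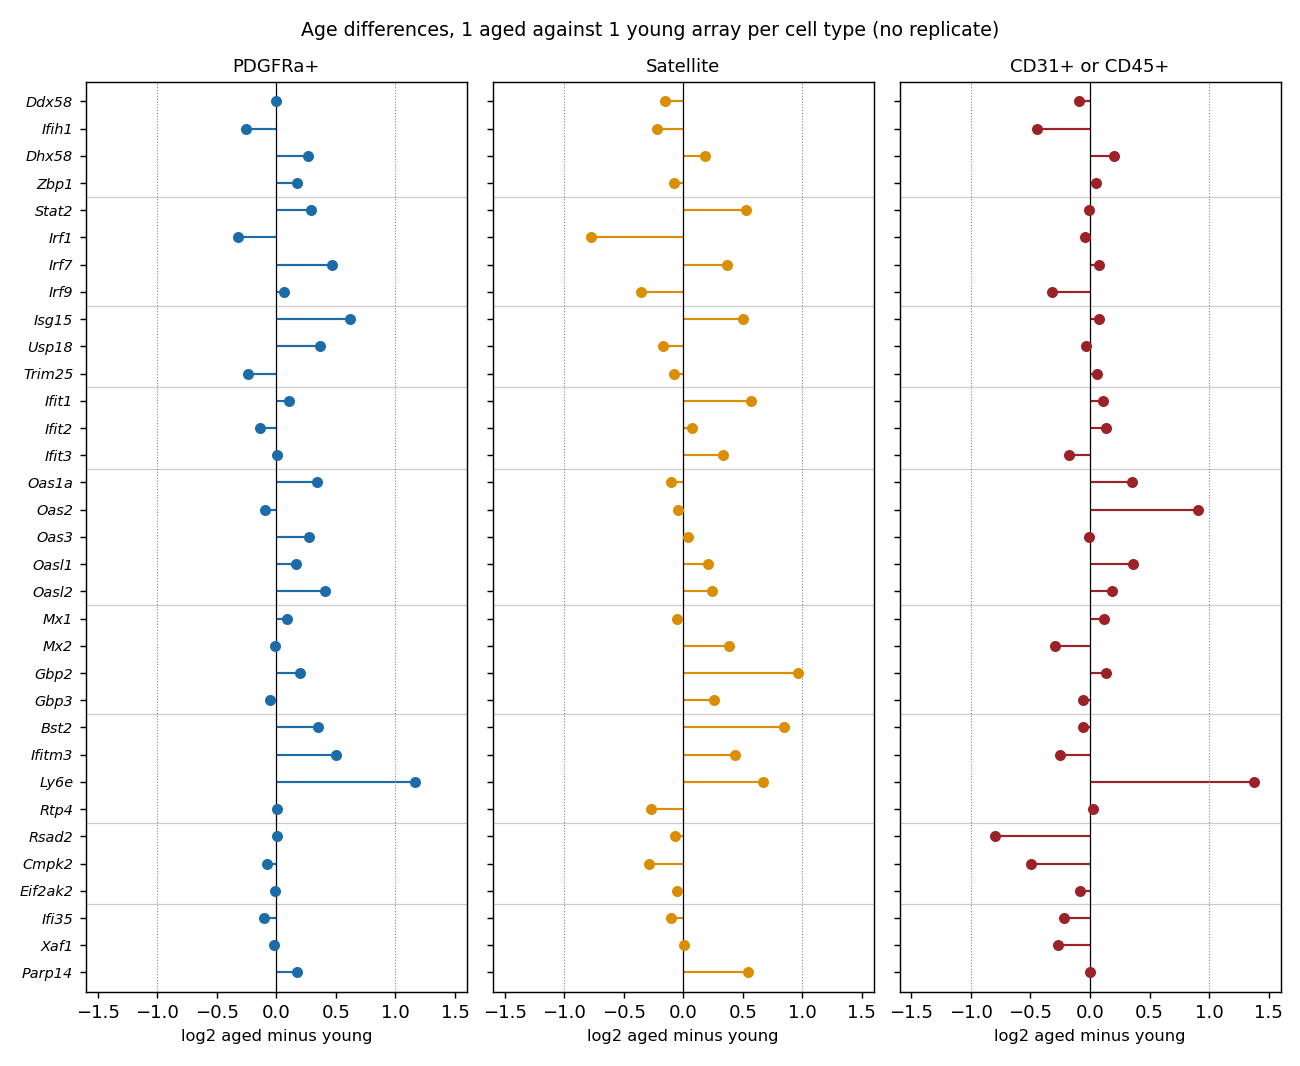
Log2 difference of each member between the aged and the young array of each population (x axis; 1 array against 1, no error can be given); dotted lines mark 2-fold. Ly6e passes 2-fold to the right in PDGFRa+ and CD31+ or CD45+ cells, at 1.17 and 1.38, and no other member passes it.

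Ly6e was the member with the widest age difference on the log2 scale used for the tests, whose offset shrinks the differences of dim probes. It was higher on the aged array by 1.17 in PDGFRa+ cells, by 0.67 in satellite cells and by 1.38 in CD31+ or CD45+ cells, the only member at 2-fold or more in any population on that scale. Across all genes 0.261% were at least 2-fold higher in PDGFRa+ cells, 1.12% in satellite cells and 0.509% in CD31+ or CD45+ cells; no member was 2-fold lower, where 0.161%, 0.0990% and 0.0657% of all genes were. Its age term was 1.07 ± 0.16, with an unadjusted p of 0.00416 and a limma adjusted p of 0.328. With the local background of each spot the 3 differences were 0.28, 0.13 and 0.75. On the deposited intensities 4 other members were at least 2-fold higher on the aged satellite array, Gbp2 (101 and 216), Ifit1 (12.9 and 35.6), Ifit3 (7.70 and 18.6) and Oasl1 (4.30 and 10.4), where 4.96% of all genes were. In CD31+ or CD45+ cells Oas2 (124 and 257) joined Ly6e, where 2.72% of all genes were, and in PDGFRa+ cells Ly6e stood alone, where 1.65% were. No member was 2-fold lower on the deposited intensities, where from 1.19% (CD31+ or CD45+ cells) to 3.49% (PDGFRa+ cells) of all genes were.

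At 1.5-fold, PDGFRa+ cells had Isg15 (0.62) beside Ly6e. Satellite cells had Gbp2 (0.96), Bst2 (0.84) and Ly6e higher on the aged array and Irf1 (-0.78) lower. In CD31+ or CD45+ cells Oas2 stood at 0.91 and Rsad2 at -0.79, with its neighbour Cmpk2 at -0.49, under 1.5-fold. Irf7 stood at 0.47, 0.37 and 0.08 in the 3 populations, and Isg15 at 0.62, 0.51 and 0.07. Ifih1, at -0.26, -0.22 and -0.45, and Irf1, at -0.32, -0.78 and -0.04, lay on the other side. Among the other pathway genes the widest gaps were Ccl5 at 2.63 in CD31+ or CD45+ cells, Ifitm1 at 2.07 and Cxcl9 at 2.04 in satellite cells, and Ifng at 1.89 in CD31+ or CD45+ cells, where Ifnb1 stood at -0.06.

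Markers of other cells also differed between young and aged arrays. In satellite cells 8 of 9 mesenchymal markers were higher on the aged array, their summed intensity was 1.51 times the young one, and Dcn read 454 and 2544. Lyz2, a myeloid lysozyme, read 147 and 965 in satellite cells and 110 and 1905 in PDGFRa+ cells, while Ptprc read from 2.30 to 4.70 on these 4 arrays. The sum of 12 macrophage and monocyte markers was 9529 and 14045 in PDGFRa+ cells, 679 and 1742 in satellite cells, and 43628 and 45811 in CD31+ or CD45+ cells. In PDGFRa+ cells Ly6c2, a surface protein of monocytes, gave 9179 and 11900 of it, while Adgre1 was not above background, Ccr2 read 1.5 and 1.1, and Cd68 read 73.3 and 44.9. The satellite sum was 2.57 times the young one, with 12 of 12 genes higher on the log2 scale. There the myofibre sum was 2.14 times the young one (6 of 6), the pericyte and smooth muscle sum 1.68 times (7 of 8) and the neutrophil sum 1.6 times (7 of 8), with S100a9 at 1.3 and 70.7. In PDGFRa+ cells the glial sum was 1.95 times the young one (3 of 3) and the myofibre sum 0.447 times. In the CD31+ or CD45+ cells the endothelial sum was 25936 and 20443, the sum of 8 pan-hematopoietic markers 3467 and 4628, of 9 T and NK cell markers 231 and 576, and of 6 B and plasma cell markers 294 and 1379. Mzb1 gave 25.4 and 759 of the B and plasma cell sum, while all 6 of its genes were higher on the aged CD31+ or CD45+ array. Plasmacytoid dendritic cells are the main makers of type I interferon, and the sum of their 7 markers there was 1700 and 1664. Of these markers 3 were higher on the aged array on the log2 scale. Bst2, itself a member, gave 1439 and 1305 of the sum, while Siglech read 76.8 and 67.1 and Ly6d 77.4 and 166. The summed intensity of the members was 1.17, 1.11 and 0.949 times the young value in PDGFRa+, satellite and CD31+ or CD45+ cells. The part of these markers in the members' age differences was not tested.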

How the data were processed

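The 6 arrays of sorted mouse muscle cells held 1 sample per population and age. Per the file headers, the scanner files hold median spot intensity at 635 nm, merged by the authors from 3 scanner gains. The deposited value table holds linear intensity scaled to a median of 25 per array, with empty cells where a spot was not above background; how it was made is not given in the sources used here and was read from the values. It supplied the printed intensities and the choice of probe.

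For tests, spot intensities were corrected by normexp against the 5% trimmed mean of 2736 blank spots (offset 50), log2-transformed and quantile-normalised in limma 3.58.1 (R 4.3.3). Of 23473 probes, 20690 had a gene name, from the platform annotation updated by Entrez ID. Genes above background on at least 2 arrays were tested (18372) with population and age as additive terms, 2 residual degrees of freedom and Benjamini-Hochberg adjustment over all genes. The number of arrays limits the precision. The genes named are all members (values on every array for the widest differences and the brightest of each role), the receptors, kinases, STATs and ligands above background, and the 3 widest differences of each other list; any other gene was chosen after its values were seen. The members and lists were chosen with earlier results of these data known. The fit was tested on simulated data.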

Additional observations from a re-analysis of the deposited data

How the results depend on the processing

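With the local background, 5 members were called in PDGFRa+ against CD31+ or CD45+ cells, 8 in satellite against CD31+ or CD45+ cells and 0 between PDGFRa+ and satellite cells; the cause was not tested. The scanner setting as a block left 4 calls in the first comparison, 3 of them shared with the 18. That block term rests on the satellite arrays alone, the only ones that differ in setting within a population. Between PDGFRa+ and satellite cells 5 were called with no background correction or with an offset of 10, 4 on the authors' value table and 1 without the age term. Leaving out each array in turn gave 6 to 18, 18 to 21 and 0 to 3 calls in the 3 comparisons, and the lone array left in a population is then assumed to vary like the others. The age term called 0 members under each alternative run. The median age difference became 0.167 (local background) and -0.022 (authors' value table) in PDGFRa+ cells, and 0.104 (no background correction), 0.167 (offset of 10) and 0.152 (authors' value table) in satellite cells. Median scaling, filters, all probes of a gene and a 1.5-fold minimum kept each count within 1.5 times, and no called difference changed sign under the alternatives run. On the authors' value table the median of all genes moved to 0.143 in satellite against CD31+ or CD45+ cells. No paired analysis was possible because no group has a second, numbered replicate; the young and aged arrays of a population are already matched by the population term of the fit. Dim members, such as Mx1, Oas3 and Eif2ak2, are limited by their signal over background.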
